A study of Arabidopsis thaliana with 32 samples.

Results

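The transcripts of 10 Aux/IAA genes were followed across 4 genotypes of Arabidopsis thaliana: IAA1 (AT4G14560), IAA2 (AT3G23030), IAA3 (AT1G04240), IAA4 (AT5G43700), IAA6 (AT1G52830), IAA7 (AT3G23050), IAA14 (AT4G14550), IAA17 (AT1G04250), IAA19 (AT3G15540) and IAA29 (AT4G32280). They are 10 of the 33341 genes in the count table, chosen by name with earlier results of these data known. All 10 passed the filter on low counts that left 19575 genes. Because of that choice, their counts of calls beside those of all genes are a description and not a test of enrichment. The libraries were made from leaves of plants 3 weeks old, grown with 16 h of light and 8 h of dark. Each of the genotypes atxr5/6, gcn5, atxr5/6 gcn5 and the wild type Col-0 had 2 RNA-seq libraries. The mutants are given in the Col-0 accession, and the labels name no allele. ATXR5 and ATXR6 add a single methyl group to lysine 27 of histone H3.1, and the enzyme GCN5 acetylates histones. The study's title names both activities beside transcriptional silencing. The 24 chromatin samples of the series were not analysed here. The labels do not say whether the libraries of a genotype came from separate plants, so p-values measure only the spread between these libraries.

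Aux/IAA proteins are short-lived repressors of the auxin response. They bind the ARF transcription factors and recruit TOPLESS corepressors, which keeps auxin target genes low. Auxin joins an Aux/IAA protein to a TIR1/AFB receptor, the repressor is degraded, and the ARF is set free. Many Aux/IAA genes are themselves induced by auxin, so the family is part of a negative feedback loop and is often read as a gauge of auxin response. In leaves and stems, auxin and these repressors take part in cell expansion, vein patterning and the response to shade.

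The gene table held 24860332 to 43969417 counts per library. Against Col-0, ATXR5 fell by 1.99 on the log2 scale in atxr5/6 (SE 0.19, adjusted p 0.00141, edgeR) and by 3.99 in atxr5/6 gcn5 (SE 0.30, adjusted p 6.66e-05). ATXR5 also fell by 0.69 in gcn5 (SE 0.18, adjusted p 0.0200, edgeR). The transcript of GCN5, listed as HAG1, averaged 5.11 CPM (counts per 1000000 counts of the scaled library size) in gcn5 and 4.79 CPM in Col-0. ATXR6 averaged 0.483 CPM in atxr5/6 gcn5, 0.206 CPM in atxr5/6 and 0.460 CPM in Col-0. HAG1 in gcn5 and ATXR6 in atxr5/6 gcn5 did not set those libraries apart from Col-0. From atxr5/6 to atxr5/6 gcn5, ATXR5 was lower (log2 fold change -1.99, SE 0.32, adjusted p 0.00184, edgeR) and ATXR6 higher (1.21, SE 0.39, adjusted p 0.0381). The transcripts thus did not show 1 shared atxr5/6 state, and gcn5 and atxr5/6 gcn5 below stand for libraries labelled so. Ribosomal DNA features took 13.3% to 21.6% of counts in the 4 libraries with the gcn5 label and 0.293% to 2.37% in the 4 others. Plastid genes took 43.2% to 46.5% in the libraries with the gcn5 label and 53.8% to 57.4% in the others. Both shares split the libraries exactly as the gcn5 label does, so a library batch that followed them and the genotype cannot be told apart.

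The Aux/IAA transcripts were lower in leaves carrying the gcn5 label, with and without atxr5/6. In gcn5, 8 of the 10 genes fell against Col-0 and none rose, where 19.4% of all tested genes fell, 18.1% rose and 37.5% were called in either direction. A gene was called at an adjusted p under 0.05 by the quasi-likelihood test of edgeR, with p-values adjusted after Benjamini and Hochberg over all 19575 genes. In atxr5/6 gcn5 the same 8 genes fell against Col-0, against a background of 20.4% falling and 39.1% called. In atxr5/6 alone 3 of the 10 fell, IAA2, IAA19 and IAA29, where 7.69% of all genes fell, 5.48% rose and 13.2% were called. Against Col-0 the 10 genes had a median log2 fold change of -0.40 for atxr5/6, -1.08 for gcn5 and -1.19 for atxr5/6 gcn5, beside -0.01, 0.01 and 0.00 for all tested genes. RNA came from whole leaves, in which fewer cells of a type and less RNA per cell cannot be told apart. With library totals in place of TMM scaling (trimmed mean of M values), the 8 gcn5 calls stood, while the split over all genes moved to 1344 higher and 3492 lower, beside 3537 higher and 3806 lower with TMM. When the rDNA share was added as a covariate, none of the 10 genes was called in gcn5 or atxr5/6 gcn5 and 1 was called in atxr5/6. That share splits the libraries as the gcn5 label does, and 0 of all genes were then called in gcn5 against Col-0.

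**Figure D1:**
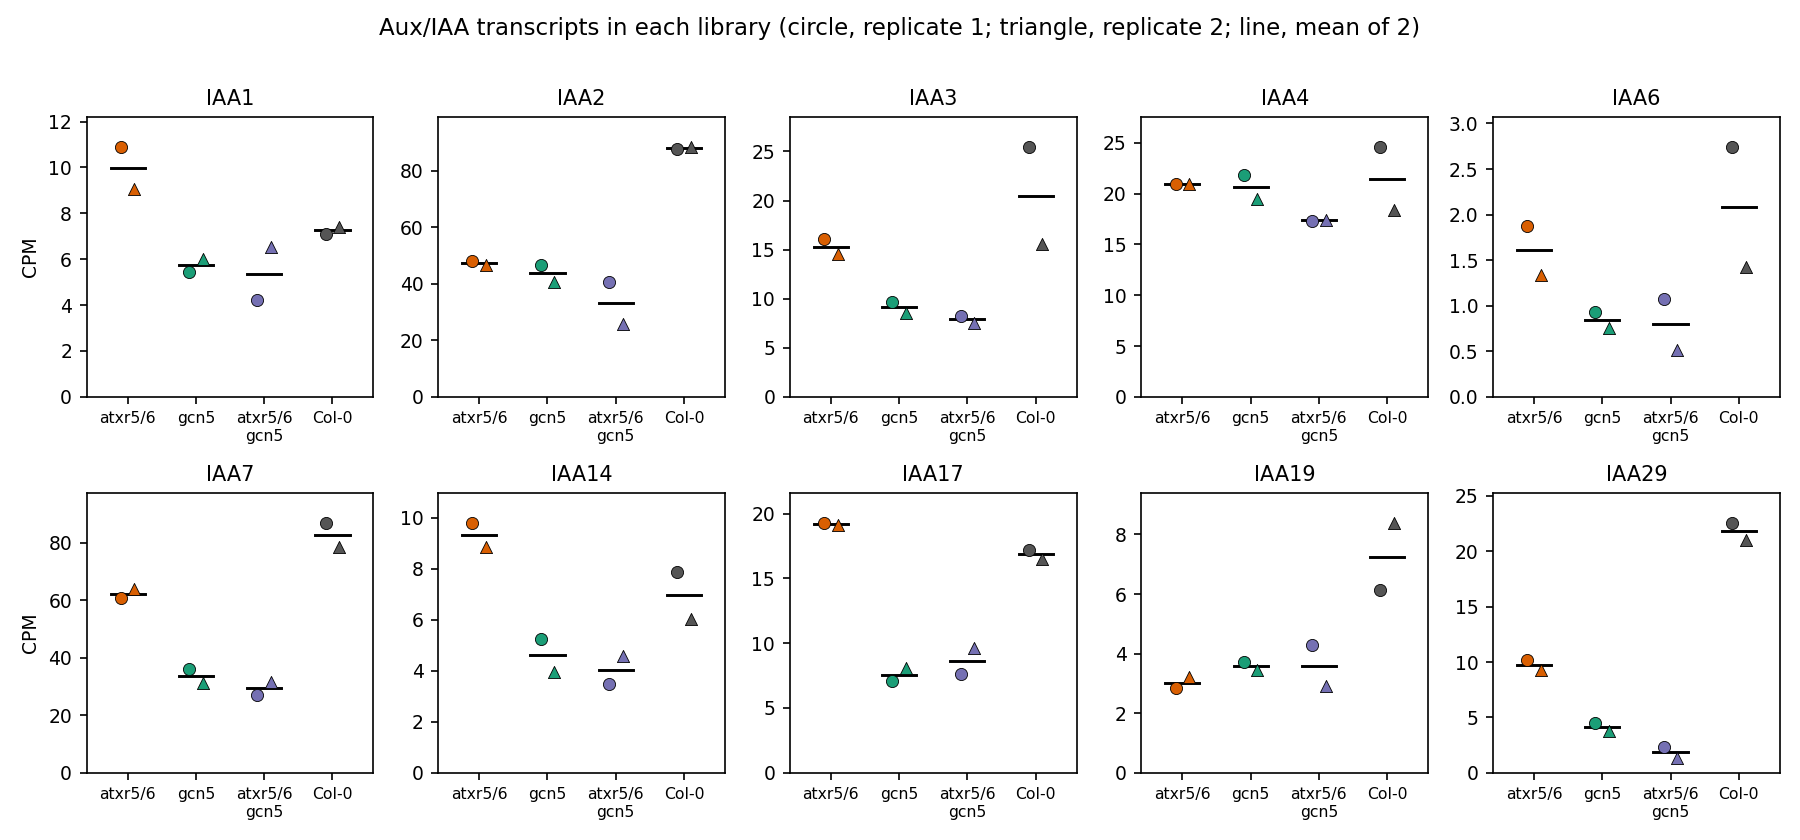
Each panel shows 1 Aux/IAA gene, with CPM on TMM-scaled library sizes on a linear axis from 0 and the genotypes atxr5/6, gcn5, atxr5/6 gcn5 and Col-0 from left to right. Circles are replicate 1, triangles replicate 2 and lines the mean of 2 libraries. For IAA1, IAA3, IAA6, IAA7, IAA14, IAA17 and IAA29, the 4 libraries with the gcn5 label lie below the 4 others.

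IAA29 had the largest change of the 10 genes in gcn5 and in atxr5/6 gcn5. It is a shade-responsive Aux/IAA gene and a known target of the PIF transcription factors, which promote growth in low light. IAA29 stood at 10.2 and 9.32 CPM for atxr5/6, 4.47 and 3.80 for gcn5, 2.35 and 1.34 for atxr5/6 gcn5, and 22.5 and 21.1 for Col-0. No library of one genotype overlapped those of another, and the genotypes ran from Col-0 down through atxr5/6 and gcn5 to atxr5/6 gcn5. IAA29 was 2.23-fold lower in atxr5/6 than in Col-0 (log2 fold change -1.16, SE 0.18, adjusted p 0.00707) and 5.28-fold lower in gcn5 (-2.40, SE 0.19, adjusted p 0.000213). It was 11.8-fold lower in atxr5/6 gcn5 than in Col-0 (-3.56, SE 0.22, adjusted p 6.03e-05). The step from gcn5 to atxr5/6 gcn5 was a 2.23-fold lower level, with an interval that did not reach 0 (log2 fold change -1.15, 95% interval -1.69 to -0.62), but was not called after adjustment (adjusted p 0.360). DESeq2 called that step, as did edgeR without the low-count filter, edgeR with library totals, and edgeR without atxr5/6 gcn5 replicate 1 (log2 fold change -1.62). Without atxr5/6 gcn5 replicate 2, the lower library, it was -0.81 and not called. Its adjusted p ran from 0.0115 to 1.00 over the alternatives, the rDNA covariate apart.

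IAA19 was low in every mutant. IAA19, also called MASSUGU2, represses the ARF7-dependent bending of the hypocotyl toward light and against gravity. Its libraries held 2.85 and 3.2 CPM for atxr5/6, 3.73 and 3.46 for gcn5, 4.28 and 2.91 for atxr5/6 gcn5, and 6.13 and 8.38 for Col-0. The 3 mutants overlapped or lay close together and all 6 of their libraries were below both Col-0 libraries. IAA19 was 2.38-fold lower in atxr5/6 than in Col-0 (log2 fold change -1.25, SE 0.21, adjusted p 0.0104), and its log2 fold change was -1.0 in gcn5 (SE 0.22, adjusted p 0.0101) and -1.0 in atxr5/6 gcn5 (SE 0.22, adjusted p 0.00904). Between atxr5/6 gcn5 and atxr5/6 the log2 fold change was 0.26, with a 95% interval of -0.26 to 0.78. The gcn5 call was lost without gcn5 replicate 2 (-0.94).

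IAA6, a close relative of IAA19 known as SHY1 from its part in hypocotyl growth, was counted least. It rested on 15 to 126 counts per library. IAA6 stood at 1.88 and 1.34 CPM for atxr5/6, 0.934 and 0.753 for gcn5, 1.08 and 0.514 for atxr5/6 gcn5, and 2.74 and 1.43 for Col-0. The atxr5/6 and Col-0 libraries overlapped, as did those of atxr5/6 gcn5 and gcn5. IAA6 fell 2.54-fold in gcn5 (log2 fold change -1.35, SE 0.44, adjusted p 0.0385) and 2.67-fold in atxr5/6 gcn5 (-1.42, SE 0.43, adjusted p 0.0287) against Col-0. The gcn5 call was lost when either gcn5 library, either atxr5/6 library or Col-0 replicate 1 was left out, and without Col-0 replicate 1 the log2 fold change was -0.76. The atxr5/6 gcn5 call was lost with only these genotypes in the fit, without Col-0 replicate 1 (-0.83) and without atxr5/6 gcn5 replicate 2 (-0.99).

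IAA7, IAA14 and IAA17 belong to one branch of the family. Stabilised forms of IAA7 (AXR2) and IAA17 (AXR3) make dwarf plants with disturbed gravity responses, and stabilised IAA14 (SOLITARY-ROOT) blocks lateral root formation. IAA7 had 60.7 and 63.8 CPM for atxr5/6, 36 and 31.2 for gcn5, 27.2 and 31.6 for atxr5/6 gcn5, and 86.8 and 78.4 for Col-0. Col-0 was highest, atxr5/6 was next without overlap, and gcn5 and atxr5/6 gcn5 overlapped at the bottom. IAA7 was 2.46-fold lower in gcn5 (log2 fold change -1.30, SE 0.11, adjusted p 0.000316) and 2.81-fold lower in atxr5/6 gcn5 (-1.49, SE 0.11, adjusted p 0.000147) than in Col-0. The step in atxr5/6 against Col-0 was just outside the threshold, at -0.41 on the log2 scale (SE 0.11, adjusted p 0.0503), and was called under 6 of 17 alternatives, the rDNA covariate apart.

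For IAA17 and IAA14 the atxr5/6 values against Col-0 were above 0, but neither was called, and their difference from IAA7 was not tested. IAA17 held 19.3 and 19.1 CPM for atxr5/6, 7.06 and 8.09 for gcn5, 7.65 and 9.60 for atxr5/6 gcn5, and 17.2 and 16.5 for Col-0. It was 2.22-fold lower in gcn5 (log2 fold change -1.15, SE 0.13, adjusted p 0.00070) and 1.96-fold lower in atxr5/6 gcn5 (-0.97, SE 0.12, adjusted p 0.00110) than in Col-0. As for 29.6% of all tested genes, the atxr5/6 libraries lay above both Col-0 libraries. The log2 fold change of IAA17 there was 0.19 and was not called (SE 0.12, adjusted p 0.345). IAA14 showed the same order at lower counts, with 9.78 and 8.83 CPM for atxr5/6, 5.24 and 3.95 for gcn5, 3.47 and 4.59 for atxr5/6 gcn5, and 7.87 and 6.03 for Col-0, save that its lowest mean was in atxr5/6 gcn5. Against Col-0, IAA14 fell by 0.61 on the log2 scale in gcn5 (SE 0.20, adjusted p 0.0452) and by 0.80 in atxr5/6 gcn5 (SE 0.20, adjusted p 0.0162). Against Col-0 the atxr5/6 difference of 0.41 was not called (adjusted p 0.193). The gcn5 call of IAA14 was lost with DESeq2, with only these genotypes in the fit, without either atxr5/6 library, without gcn5 replicate 2 (log2 fold change -0.42) and without Col-0 replicate 1 (-0.40). The atxr5/6 gcn5 call was lost with only these genotypes in the fit, without atxr5/6 gcn5 replicate 1 (-0.61) and without Col-0 replicate 1 (-0.58).

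IAA3 and IAA4 are close relatives. IAA3, known as SHY2, limits the size of the root meristem and joins cytokinin to auxin signalling. IAA3 had 16.1 and 14.5 CPM for atxr5/6, 9.70 and 8.55 for gcn5, 8.24 and 7.57 for atxr5/6 gcn5, and 25.4 and 15.5 for Col-0. The Col-0 libraries lay far apart and overlapped those of atxr5/6, but every library with the gcn5 label was below every other. IAA3 fell 2.26-fold in gcn5 (log2 fold change -1.18, SE 0.21, adjusted p 0.00465) and 2.61-fold in atxr5/6 gcn5 (-1.38, SE 0.21, adjusted p 0.00226) against Col-0. Left without Col-0 replicate 1, the gcn5 value was -0.77, and it was still called. Without Col-0 replicate 2, IAA3 was called lower in atxr5/6 as well (-0.71), beside -0.43 with both.

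IAA4 was called in no comparison with all 8 libraries. It stood at 21.0 and 21.0 CPM for atxr5/6, 21.8 and 19.5 for gcn5, 17.3 and 17.4 for atxr5/6 gcn5, and 24.6 and 18.4 for Col-0. Its log2 fold change against Col-0 was -0.06 in gcn5 with a 95% interval of -0.38 to 0.25, which leaves out a fall of the size seen for IAA3. In atxr5/6 gcn5 the value was -0.31 (SE 0.14, adjusted p 0.105), with both libraries below both Col-0 libraries, and it was called without Col-0 replicate 2 (-0.53). Against atxr5/6 it was called under 3 of 17 alternatives, among them those without Col-0 replicate 1 (-0.27) or 2 (-0.32). The difference in response between IAA3 and IAA4 was not tested.

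IAA1 and IAA2 form the other close pair, both early genes of the auxin response. A stabilised form of IAA1, AXR5, makes plants insensitive to auxin. IAA2 held 48.2 and 46.7 CPM for atxr5/6, 46.8 and 40.7 for gcn5, 40.7 and 25.7 for atxr5/6 gcn5, and 87.7 and 88.4 for Col-0. All 6 mutant libraries lay far below the Col-0 libraries, and the mutants lay next to or overlapped each other. IAA2 was 1.86-fold lower in atxr5/6 (-0.89 as log2, SE 0.19, adjusted p 0.0201), 2.01-fold lower in gcn5 (-1.01, SE 0.19, adjusted p 0.00528) and 2.65-fold lower in atxr5/6 gcn5 (-1.41, SE 0.19, adjusted p 0.00134) than in Col-0.

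The highest level of IAA1 was in atxr5/6. IAA1 had 10.9 and 9.05 CPM for atxr5/6, 5.44 and 6.02 for gcn5, 4.22 and 6.51 for atxr5/6 gcn5, and 7.09 and 7.42 for Col-0. Neither its log2 fold change of 0.47 in atxr5/6 (SE 0.19, adjusted p 0.145) nor that in gcn5 (-0.34, SE 0.20, adjusted p 0.214) or atxr5/6 gcn5 (-0.43, SE 0.20, adjusted p 0.115) was called against Col-0. The fall that did pass was that in atxr5/6 gcn5 against atxr5/6, 1.87-fold (log2 fold change -0.90, SE 0.19, adjusted p 0.00927), and it was lost without atxr5/6 replicate 1 (-0.76). Without atxr5/6 gcn5 replicate 2, its value in atxr5/6 gcn5 against Col-0 was called too (-0.78).

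The 3 calls in atxr5/6 needed both of its libraries, as most calls in that comparison did. Without either atxr5/6 library, when the remaining one is assumed to vary like the other groups, none of the 10 genes was called. Calls over all genes were then 168 without replicate 1 and 212 without replicate 2, beside 2578 of 19575 with both. Their log2 fold changes stayed between -0.87 and -0.91 for IAA2, -1.17 and -1.33 for IAA19, and -1.09 and -1.23 for IAA29. The IAA2 call was also lost without Col-0 replicate 2 (-0.87). Without either atxr5/6 gcn5 library, 5 of the 10 were called in atxr5/6, 1 higher and 4 lower, with IAA1 higher at 0.47 and IAA7 lower at -0.41. Calls over all genes were then 3086 without replicate 1 and 3087 without replicate 2.

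**Figure D2:**
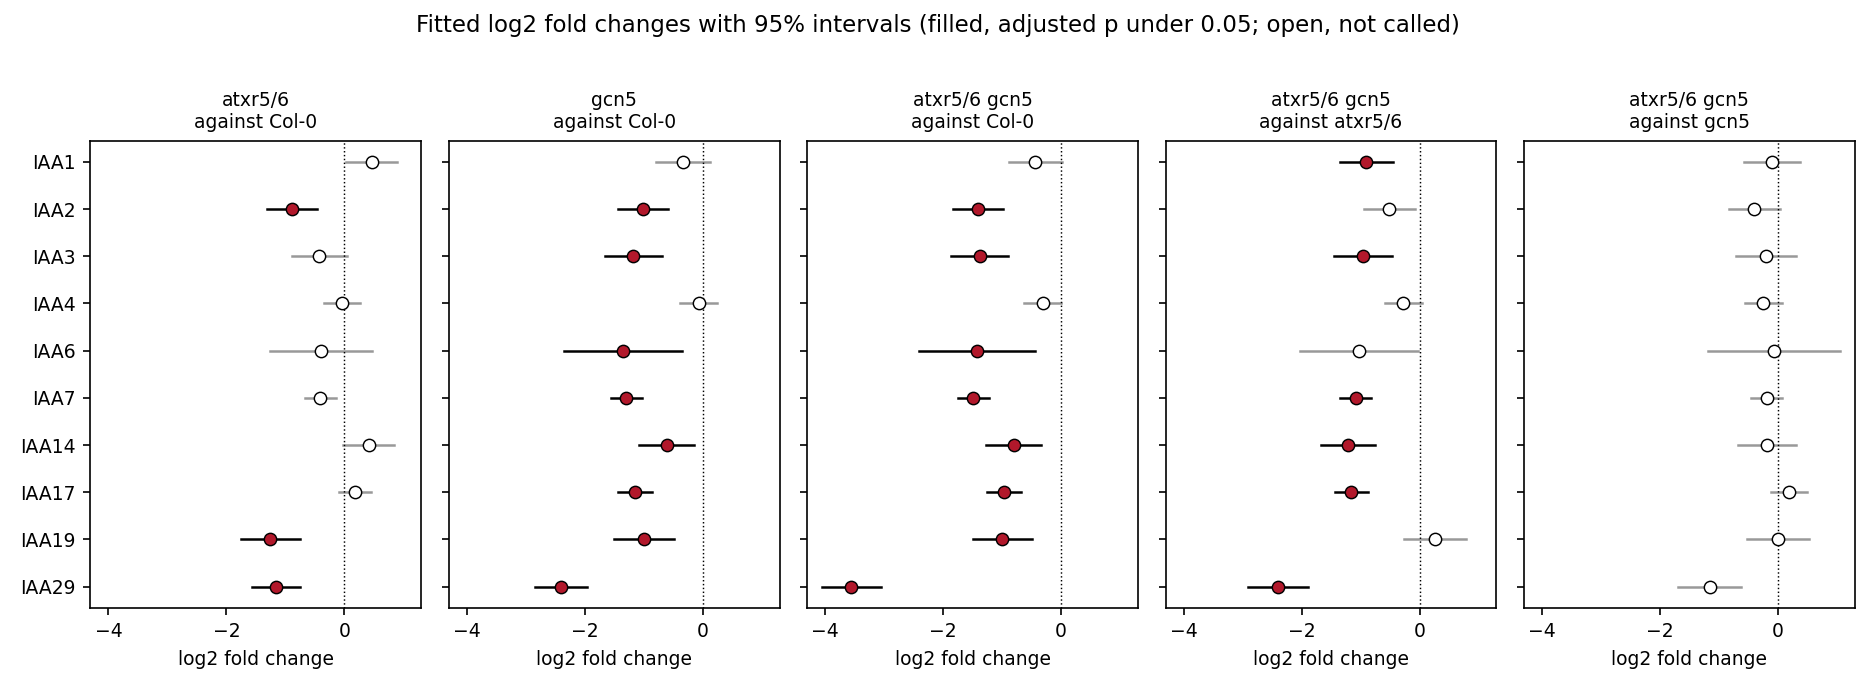
Log2 fold changes (horizontal axis) of the 10 Aux/IAA genes in 5 comparisons, with 95% intervals as lines. Filled points were called at an adjusted p under 0.05 and open points were not; IAA29 lies farthest left in both comparisons of the gcn5 and atxr5/6 gcn5 libraries with Col-0, at -2.40 and -3.56.

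The gcn5 label went with lower Aux/IAA transcripts in the atxr5/6 background as well. In atxr5/6 gcn5 against atxr5/6, 6 of the 10 genes fell and none rose, where 18.3% of all tested genes fell, 18.4% rose and 36.7% were called. The 6 were IAA1, IAA3, IAA7, IAA14, IAA17 and IAA29. IAA29 was 5.27-fold lower (log2 fold change -2.40, SE 0.22, adjusted p 0.00025), IAA14 2.31-fold lower (-1.21, SE 0.20, adjusted p 0.00302) and IAA17 2.23-fold lower (-1.15, SE 0.12, adjusted p 0.000529). IAA7 was 2.12-fold lower (-1.08, SE 0.11, adjusted p 0.000524) and IAA3 1.94-fold lower (-0.96, SE 0.21, adjusted p 0.0106). The IAA3 call was lost without atxr5/6 replicate 1 (-0.88). IAA2 (-0.51, adjusted p 0.0629), IAA6 (-1.02, adjusted p 0.0930), IAA4 (-0.27, adjusted p 0.151) and IAA19 (0.26, adjusted p 0.397) were not called. IAA2 was called in this comparison under 8 of 17 alternatives, and IAA6 under 4 of 17, the rDNA covariate apart. Among the left-out libraries, IAA2 was called without atxr5/6 gcn5 replicate 1 (-0.89) or Col-0 replicate 2 (-0.57), and IAA6 without Col-0 replicate 2 (-1.08).

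The comparison of gcn5 with Col-0 and that of atxr5/6 gcn5 with atxr5/6 share no library. IAA3, IAA7, IAA14, IAA17 and IAA29 fell in both, 5 of the 10, where 11.7% of all tested genes fell in both. The sign was the same for 9 of the 10 genes, all but IAA19, and for 75.4% of all genes. IAA29 changed by -2.40 in each. Across the 10 genes Pearson's r between both sets of log2 fold changes was 0.68, beside 0.73 across all genes. This r is across genes of the same libraries, which are not independent replicates. Over all 8 libraries, the 4 with the gcn5 label were below the 4 others for 7 of the 10 genes, all but IAA2, IAA4 and IAA19, where 19.9% of all tested genes showed that order.

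**Figure D3:**
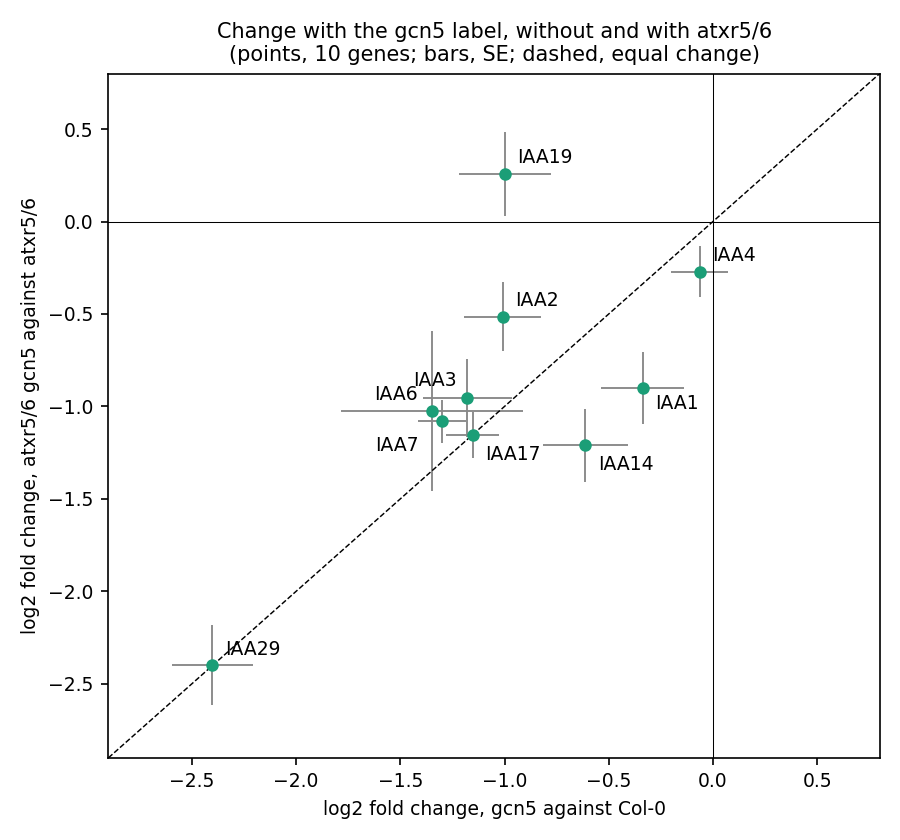
Each point is 1 of the 10 Aux/IAA genes, with its log2 fold change in gcn5 against Col-0 on the horizontal axis and in atxr5/6 gcn5 against atxr5/6 on the vertical axis; bars are standard errors and the dashed line marks equal change. IAA29 lies on the line at -2.40, IAA19 lies at -1.0 and 0.26, and IAA1, IAA4 and IAA14 lie below the line.

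The difference between those changes, the interaction, was called for none of the 10 genes by edgeR, where 0.470% of all genes were called, 0.266% higher and 0.204% lower. By DESeq2 none of the 10 was called either, beside 512 of all genes. At an unadjusted p under 0.05, only IAA19 of the 10 passed (p 0.00395), beside 3506 of all genes. IAA19 had the largest interaction of the 10 (log2 1.256, SE 0.32, 95% interval 0.53 to 1.98, adjusted p 0.113). Its call was made with library totals and without the low-count filter, and also without atxr5/6 gcn5 replicate 2 (1.503) and without Col-0 replicate 1 (1.48). Under these left-out libraries the interaction calls over all genes were 663 and 941, beside 92 with all libraries, and without either atxr5/6 library there were 0. Over the alternatives, the rDNA covariate apart, its adjusted p ran from 0.0160 to 0.405. IAA29 had an interaction of 0.00 (SE 0.29, 95% interval -0.67 to 0.67) and IAA17 one of -0.00 (SE 0.18, 95% interval -0.41 to 0.40). IAA1 (-0.56, 95% interval -1.20 to 0.08) and IAA14 (-0.60, 95% interval -1.25 to 0.06) had the lowest values, and neither was called.

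In atxr5/6 gcn5 against gcn5, none of the 10 genes was called by edgeR, where 0.0920% of all genes were called, 0.0817% higher and 0.0102% lower. At an unadjusted p under 0.05, 1 of the 10 passed (IAA29, p 0.00101), beside 1135 of all genes. Apart from IAA29, the log2 fold changes lay between -0.40 (IAA2, 95% interval -0.83 to 0.04) and 0.18 (IAA17, 95% interval -0.12 to 0.49). With an interval that reached -0.83 for IAA2, this comparison does not show that the genotypes were alike.

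The summed CPM of the 10 genes put the genotypes in one order. The libraries summed to 201 and 197 CPM for atxr5/6, 141 and 126 for gcn5, 117 and 108 for atxr5/6 gcn5, and 288 and 261 for Col-0. No genotype overlapped another. The sum is not corrected for gene length and is carried mostly by IAA2 and IAA7. With 2 libraries against 2, the exact permutation test cannot go below a two-sided p of 0.33. It gave 0.33 for each pair of genotypes tested, and gcn5 against atxr5/6 was not among them. The 4 libraries with the gcn5 label averaged 123 ± 14.3 CPM and the 4 others 237 ± 45.2 CPM (SD, n = 4 libraries each). Each side pools 2 genotypes, so its 4 libraries are not replicates of 1 condition. The exact two-sided permutation p was 0.0286, the smallest this design allows and the value that any full separation gives. Because the 10 genes were chosen with earlier results of these data known, this p is a description and not a test of the set. Among all tested genes taken singly, 19.9% had the 4 labelled libraries below the 4 others and 22.3% above them.

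Among the 10 genes were 3 pairs of neighbours. IAA2 and IAA7 are neighbours on chromosome 3, IAA3 and IAA17 on chromosome 1, and IAA1 and IAA14 on chromosome 4, with no protein-coding gene between the members of each pair in the RefSeq gene table. Within the pairs, IAA2 fell in atxr5/6 (-0.89) while IAA7 missed the threshold (-0.41), and IAA3 and IAA17 had values of -0.43 and 0.19, neither called. IAA1 and IAA14 had close values, at 0.47 and 0.41 in atxr5/6 and -0.56 and -0.60 for the interaction, none of them called, and their r of log2 CPM over the 8 libraries was 0.899. The differences within pairs were not tested. Over the 45 pairs among the 10 genes, Pearson's r of log2 CPM across the 8 libraries had a median of 0.71, from -0.16 for IAA1 with IAA19 to 0.95 for IAA3 with IAA7. The 8 libraries share the split by the gcn5 label.

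Genes with the profile most like each Aux/IAA gene were listed as a description. For IAA7 they were LHCA4, which encodes a light-harvesting protein of photosystem I (Pearson's r 0.997 over the 8 libraries), MYB3 (0.996) and LHCB4.2, a light-harvesting protein of photosystem II (0.996). For IAA14 the nearest was CRD1, an enzyme of chlorophyll synthesis (0.995). For IAA17 the list included VTE1, the tocopherol cyclase (0.997), and for IAA2 it included CPD, an enzyme of brassinosteroid synthesis (0.989). The gene nearest to IAA1 was CSLG1 (0.990), with NST1, a factor of secondary wall formation, also near (0.978). IAA3 was close to the cellulose synthase gene CESA2 (0.983), IAA19 to CRLK2 (0.992), IAA6 to CCR2 (0.973) and IAA29 to COR314-TM2 (0.991) and PUB26 (0.987). The genes nearest to IAA4 had no symbol in the table. Such values are common with 8 libraries in 4 genotypes: of 19308 genes compared, 12 for IAA4 and 1756 for IAA17 passed an r of 0.9.

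In the rest of the family the calls in gcn5 came about as often as among all genes. Of the other 19 Aux/IAA genes, 13 were tested, and in gcn5 against Col-0 4 fell and 1 rose, beside 37.5% of all genes called, with a median log2 fold change of -0.35. IAA27 held 8.14 ± 0.893 CPM in gcn5 and 23.9 ± 0.869 CPM in Col-0 (SD, n = 2 each; log2 fold change -1.55, SE 0.10, adjusted p 0.000104), and it also fell in atxr5/6 gcn5 against atxr5/6 (-1.44, SE 0.10, adjusted p 8.56e-05). IAA16 fell to 67.8 ± 14.0 CPM in gcn5, against 132 ± 4.46 CPM in Col-0 (-0.97, SE 0.15, adjusted p 0.00240). In atxr5/6 IAA5 rose, at 2.28 ± 0.223 CPM against 0.995 ± 0.177 CPM in Col-0 (log2 fold change 1.23, SE 0.29, adjusted p 0.0290), a call lost without either atxr5/6 library or either Col-0 library. Over the whole family, 23 of 29 genes were tested. In gcn5 against Col-0, 12 fell and 1 rose, beside 19.4% and 18.1% of all genes. In atxr5/6 gcn5, 13 fell and 1 rose, beside 20.4% and 18.7%. In atxr5/6, 3 fell and 1 rose, beside 7.69% and 5.48%. The 10 genes chosen with earlier results known supplied 8 of the 12 and 8 of the 13 falls.

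Upstream of the repressors, genes of auxin synthesis and transport were lower with the gcn5 label. Of 8 tested synthesis genes, 6 fell and none rose in gcn5 against Col-0, where 19.4% of all genes fell, and 5 fell and none rose in atxr5/6 gcn5 against atxr5/6, where 18.3% fell. In atxr5/6 gcn5 against Col-0, 6 fell and 1 rose, where 20.4% of all genes fell and 18.7% rose. The 1 that rose was YUC4, named for being the only one called higher (log2 fold change 2.06, SE 0.76, adjusted p 0.0453). YUC4 averaged 0.369 CPM in atxr5/6 gcn5 and 0.0990 CPM in Col-0, from 10 and 12 counts against 2 and 4. It passed the filter on low counts only through libraries with the gcn5 label, so its rise carries no weight of its own. YUC9, which carries out the last step to auxin, averaged 1.44 CPM in gcn5 and 8.39 CPM in Col-0 (log2 fold change -2.54, SE 0.38, adjusted p 0.00201), and TAA1, the aminotransferase of the first step, 0.917 CPM in gcn5 and 2.65 CPM in Col-0 (-1.52, SE 0.20, adjusted p 0.00124). In atxr5/6, 3 synthesis genes fell and none rose, where 7.69% of all genes fell and 5.48% rose. Among them were YUC9 (-1.55, SE 0.32, adjusted p 0.0204) and YUC5 (-1.73, SE 0.43, adjusted p 0.0306). YUC5 rested on 12 and 9 counts in atxr5/6, 6 and 4 in gcn5, 2 and 0 in atxr5/6 gcn5, and 38 and 27 in Col-0. It passed the filter on low counts only through the Col-0 libraries. Any fall of YUC5 against Col-0 therefore carries no weight of its own. The YUC9 and YUC5 calls in atxr5/6 were lost without either atxr5/6 library, and that of YUC5 also without either Col-0 library. TAA1 was not called in atxr5/6 (0.14, adjusted p 0.634). Of 11 transport genes, 8 fell and none rose in gcn5 against Col-0, and 9 fell and none rose in atxr5/6 gcn5 against atxr5/6, beside the same shares of all genes. The influx carrier gene LAX1 averaged 4.52 CPM in gcn5 and 12.8 CPM in Col-0 (log2 fold change -1.51, SE 0.10, adjusted p 0.000117), and the efflux transporter gene ABCB19 fell by 0.81 on the log2 scale (SE 0.09, adjusted p 0.000657). In atxr5/6 1 transport gene rose, ABCB1 (0.47, SE 0.09, adjusted p 0.0152), and 1 fell, ABCB19 (-0.40, SE 0.09, adjusted p 0.0232). Among all genes 5.48% rose and 7.69% fell in that comparison.

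Genes of the partners of the Aux/IAA proteins were called about as often in gcn5 as all genes, of which 37.5% were. Of the 6 TIR1/AFB receptor genes, AFB3 rose (log2 fold change 0.48, SE 0.10, adjusted p 0.0102) and AFB1 fell (-0.56, SE 0.09, adjusted p 0.00340) in gcn5 against Col-0. In atxr5/6, 3 of the 6 fell, where 7.69% of all genes fell. Among the 3 were AFB1 (-0.46, SE 0.09, adjusted p 0.0171) and AFB4 (-0.42, SE 0.09, adjusted p 0.0229). Of 5 TOPLESS genes, TPR1 rose (0.32, SE 0.09, adjusted p 0.0256) and TPR3 fell (-0.78, SE 0.12, adjusted p 0.00224) in gcn5, and TPL fell in atxr5/6 (-0.36, SE 0.08, adjusted p 0.0297). In gcn5 the AFB3 call was lost without either gcn5 library, and the TPR1 call without either gcn5 library, either atxr5/6 library or Col-0 replicate 2. The AFB1, AFB4 and TPL calls in atxr5/6 needed both atxr5/6 libraries. Without replicate 1 or 2 of atxr5/6 the values were -0.50 and -0.42 for AFB1, -0.45 and -0.39 for AFB4, and -0.30 and -0.41 for TPL. Of 15 ARF genes, 5 fell and 2 rose in gcn5. ARF19, an activator that Aux/IAA proteins hold back, averaged 4.63 CPM in gcn5 and 11.2 CPM in Col-0 (-1.28, SE 0.13, adjusted p 0.000456). In atxr5/6 1 ARF gene fell, ARF18 (-0.49, SE 0.11, adjusted p 0.0241), where 13.2% of all genes were called.

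Other auxin-induced genes were the SAUR and GH3 genes. Of 15 tested SAUR genes, which promote cell expansion, 6 fell and 2 rose in gcn5 against Col-0, beside 19.4% falling and 18.1% rising among all genes. In atxr5/6, 1 fell and 2 rose, beside 7.69% and 5.48%. SAUR23 (log2 fold change -2.08, SE 0.14, adjusted p 0.000110) and SAUR22 (-1.94, SE 0.16, adjusted p 0.000213) fell in gcn5. SAUR22 and SAUR23 belong to a cluster of near-identical genes among which reads may be split. SAUR6 (0.78, SE 0.12, adjusted p 0.00670) and SAUR16 (0.68, SE 0.12, adjusted p 0.0116) rose in atxr5/6. The GH3 genes encode enzymes that join auxin to amino acids, and of 5 tested 3 fell in gcn5 and 4 fell in atxr5/6 against Col-0. GH3.5 had 6.28 and 6.80 CPM for atxr5/6, 11.3 and 11.1 for gcn5, 8.80 and 8.67 for atxr5/6 gcn5, and 21.7 and 25.3 for Col-0. Both GH3.5 (0.42, SE 0.11, adjusted p 0.0196) and GH3.3 (1.38, SE 0.26, adjusted p 0.00518) rose in atxr5/6 gcn5 against atxr5/6. The GH3.5 call there was lost when either atxr5/6 library, either atxr5/6 gcn5 library or gcn5 replicate 1 was left out.

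PIL1 and HFR1, early genes of the shade response, fell in each mutant. Of 8 PIF and shade genes, 4 fell and 1 rose in gcn5 against Col-0, where 19.4% of all genes fell and 18.1% rose. In atxr5/6, 2 fell and none rose, beside 7.69% and 5.48%. PIL1 averaged 1.15 ± 0.243 CPM in gcn5 and 15.7 ± 0.412 CPM in Col-0 (log2 fold change -3.76, SE 0.46, adjusted p 0.000814), and 5.44 ± 0.541 CPM in atxr5/6 (-1.53, SE 0.34, adjusted p 0.0262; SD, n = 2 each). HFR1, which holds back the PIF factors, fell by 2.05 on the log2 scale in gcn5 (SE 0.26, adjusted p 0.00131) and by 2.29 in atxr5/6 (SE 0.26, adjusted p 0.00290). In atxr5/6 gcn5 against atxr5/6, PIL1 fell again (-2.43, SE 0.47, adjusted p 0.00479), as did PIF7 (-0.81, SE 0.14, adjusted p 0.00400), with IAA29 lower there as well. The atxr5/6 gcn5 libraries lay apart for these genes, with PIL1 at 1.67 CPM in replicate 1 and 0.308 in replicate 2 and HFR1 at 6.54 and 3.05. Without replicate 2 the PIL1 value against atxr5/6 was -1.70, and without replicate 1 it was -4.12, called both times. In atxr5/6 against Col-0 neither PIL1 nor HFR1 was called without either atxr5/6 library. Of the 19 calls in that comparison among the genes picked from the other lists, 2 stood whichever library was left out, ATXR5 and GH3.5.

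**Figure D4:**
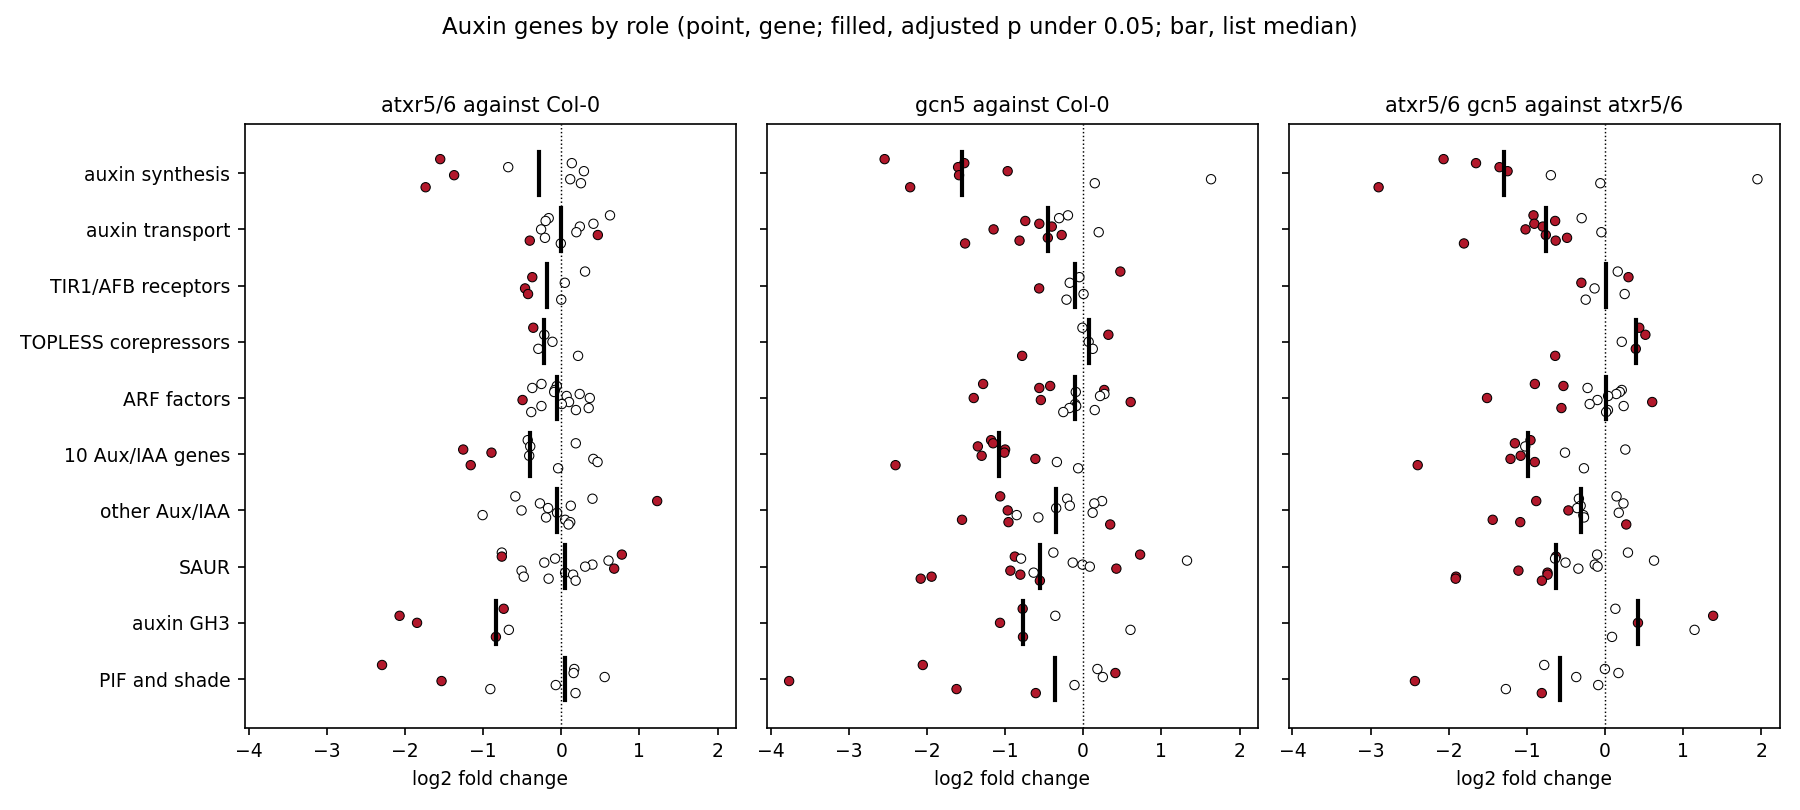
Log2 fold changes (horizontal axis) of auxin genes grouped by role, in atxr5/6 against Col-0, gcn5 against Col-0 and atxr5/6 gcn5 against atxr5/6. Each point is a tested gene, filled points were called, and thick bars are list medians; the 10 Aux/IAA genes had medians of -0.40, -1.08 and -0.99.

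Markers of leaf cell types moved with the gcn5 label too. The counts of calls below stand beside 19.4% of all tested genes lower and 18.1% higher in gcn5 against Col-0. The 6 leaf photosynthesis markers summed to 22596 and 22616 CPM in atxr5/6, 15066 to 16592 CPM in gcn5, 13888 to 15400 CPM in atxr5/6 gcn5, and 23851 to 24185 CPM in Col-0, and 5 of 6 fell in gcn5. The 5 guard cell markers summed to 15.5 to 18.3 CPM in gcn5 and 30.8 to 37.9 CPM in Col-0, and all 5 fell, though the calls of MYB60 and HT1 were lost without some single libraries, among them gcn5 replicate 2 and Col-0 replicate 1. Of 6 vascular markers, 3 fell in gcn5, led by SUC2 (log2 fold change -1.57, adjusted p 3.42e-05), and SWEET12 rose (1.81, adjusted p 0.000456). The vascular markers summed to 87.0 to 98.5 CPM in gcn5 and 160 to 167 CPM in Col-0. That fall was carried by SUC2, which averaged 36.1 CPM in gcn5 and 107 CPM in Col-0. APL averaged 4.505 CPM in gcn5 and 7.34 CPM in Col-0, and ATHB8 7.61 and 11.7 CPM. SWEET11 averaged 23.96 CPM in gcn5 and 22.88 CPM in Col-0, and XCP1 10.56 and 11.67 CPM. The sum therefore does not show a fall shared by the list. The part of these shifts, and of the rDNA and plastid shares, in the Aux/IAA results was not tested. In atxr5/6 none of the 6 leaf markers was called, where 13.2% of all genes were. The libraries held the leaf markers throughout, root markers summed to at most 0.151 CPM with EXPA7 at 0 in every library, and the meristem marker CLV3 was also at 0 in every library. None of the 2 meristem and 4 flower markers tested was called in gcn5, where 37.5% of all genes were. Lists this short cannot show that such cells were unchanged.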

How the data were processed

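The deposited gene table holds raw counts per gene for 8 RNA-seq libraries, as whole numbers of unequal sums. Per the labels' protocols, plant ribosomal RNA was depleted from total RNA before a stranded library preparation. The submitters' processing notes name STAR 2.7.2a, featureCounts 1.6.4 and DESeq2 1.26 and the build TAIR10; the strand setting and the handling of multi-mapped reads are not given in the sources used here, so reads of similar or overlapping genes may be split. Gene symbols and neighbours came from a RefSeq table of TAIR10.1, which held 33056 of 33341 gene IDs (99.1%); no coordinates or sequences are given.

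Counts were tested in R 4.3.3 with edgeR 4.0.16 (limma 3.58.1), using glmQLFit and glmQLFTest on all 8 libraries with genotype as the only term, 4 residual degrees of freedom, TMM sizes and filterByExpr at a minimum count of 10. The common biological coefficient of variation was 0.123. P-values were adjusted by Benjamini-Hochberg over the 19575 genes tested. Standard errors are Wald errors with the quasi-likelihood variance. The interaction is the log2 fold change of atxr5/6 gcn5 against atxr5/6, minus that of gcn5 against Col-0. CPM used TMM sizes, and correlations used log2 CPM with a prior count of 2. DESeq2 1.42.0 and other scalings, filters, covariates and left-out libraries were alternatives. On simulated gcn5 against Col-0 counts (19261 genes), 62.6% of 2-fold and 90.8% of 4-fold changes were recovered and 10.1% of calls were false. That share of false calls is above the 0.05 of the threshold. Only 197 of the tested genes were changed in the simulation, where 37.5% of genes were called in the real comparison, so the rates may not hold there. Replicates differed by more than counting noise, so none was counted as a repeat.

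The genes and gene lists were chosen with earlier results of these data known. All 10 Aux/IAA genes are named. Of each other list, the 2 called genes with the smallest p per comparison are named, and such a gene may be given in other comparisons. The 3 genes with the highest Pearson's r to each Aux/IAA gene were taken as nearest, and those with a symbol are named in part. The rDNA share covers 7 features, of which 3 are annotated as rRNA and 4 were added after their values were seen. Replicate numbers come from the titles.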

Additional observations from a re-analysis of the deposited data

Results flagged for a closer look

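GH3.5 was picked out because its change with the gcn5 label differed between backgrounds by a test of the difference itself. Its interaction was 1.48 on the log2 scale (SE 0.15, adjusted p 0.0133, edgeR). GH3.5 rose by 0.42 in atxr5/6 gcn5 against atxr5/6 and fell by 1.06 in gcn5 against Col-0. The call was lost without either atxr5/6 library, where 0 of all genes were called, and without either gcn5 library, with values of 1.43 to 1.54 over these and adjusted p of 0.0518 to 0.153; these left-out libraries were tried after seeing the data.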

How the results depend on the processing

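With the rDNA share as a covariate, 1 Aux/IAA gene was called in atxr5/6 and 0 in gcn5 and in atxr5/6 gcn5 against Col-0, and 0 in atxr5/6 gcn5 against atxr5/6. In gcn5 that covariate reversed IAA3 (0.041), IAA6 (0.69) and IAA14 (0.14), and in atxr5/6 gcn5 it reversed IAA6 (0.63), while IAA29, IAA7 and IAA2 stayed at -2.34, -1.29 and -1.44 in gcn5 without being called; the cause was not tested. Among all genes it left 592, 0, 0, 13, 8 and 5 calls, beside 2578, 7343, 7651, 7179, 18 and 92, for atxr5/6, gcn5 and atxr5/6 gcn5 against Col-0, atxr5/6 gcn5 against atxr5/6, the same against gcn5, and the interaction. Against gcn5, 1 Aux/IAA gene (IAA29) was called with library totals, with no low-count filter and with DESeq2, and for the interaction 1 (IAA19) with library totals and with no filter; the cause was not tested. Leaving out 1 library gave 0 to 5 called in atxr5/6 and 5 to 8 in gcn5, the 5 without gcn5 replicate 2. It gave 6 to 9 in atxr5/6 gcn5 against Col-0, 4 to 9 against atxr5/6, 0 to 1 against gcn5 (1 without atxr5/6 gcn5 replicate 1) and 0 to 2 for the interaction (2, IAA2 and IAA19, without atxr5/6 gcn5 replicate 2). The summed level without IAA2 had a log2 ratio of -0.30 in atxr5/6 against Col-0 (beside -0.47) and -0.94 in atxr5/6 gcn5 against atxr5/6 (beside -0.83). With library totals it was -1.15 in gcn5 against Col-0 (beside -1.04) and -0.91 in atxr5/6 gcn5 against atxr5/6.

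Calls over all genes in gcn5 and atxr5/6 gcn5 against Col-0 and in atxr5/6 gcn5 against atxr5/6 were 4836, 4889 and 4387 with library totals, and 4778, 5064 and 4401 with DESeq2. The higher and lower calls were 1777 and 3112 with library totals, 2050 and 3014 with DESeq2, beside 3653 and 3998, in atxr5/6 gcn5 against Col-0, and 1342 and 3045, and 1670 and 2731, beside 3600 and 3579, against atxr5/6. In gcn5 against Col-0 DESeq2 gave 1989 higher and 2789 lower. Against gcn5 the total was 131 with library totals, 51 with DESeq2, 61 with no filter and 0 with only these genotypes, and the interaction had 707 calls with library totals, 512 with DESeq2 and 989 with no filter. With only these genotypes in the fit, atxr5/6 gcn5 against Col-0 had 4275. The deviations of same-numbered replicates had r from -0.170 to 0.183. The 0.183 was between gcn5 and atxr5/6 gcn5, in both of which replicate 1 had the higher rDNA share. The labels tie the numbers to no shared batch, and not every pair of genotypes passed 0.1, so the numbers were taken as names. The replicate block called 3, 7, 8, 8, 0 and 0 of the Aux/IAA genes in the order above, with 7 genes in all against gcn5 and 31 for the interaction; IAA14 in gcn5 was not called with it, and IAA2 and IAA6 were added against atxr5/6. Crossing the numbers between atxr5/6 gcn5 and Col-0, tried after seeing the data, gave 7 calls.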
